A study of Mus musculus with 7 samples.

Results

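The 35 genes described here encode the enzymes of glycolysis, the enzymes that store and release glycogen, and the carriers that move glucose and lactate across the cell membrane. They were chosen by name: a gene was a member if its Ensembl identifier carries one of 35 mouse symbols in the GENCODE M21 annotation. All 35 symbols were matched, out of 46603 genes counted in each library. The genes cover 18 steps of the pathway. At 11 of these steps more than one form of the enzyme or carrier is among the members, and these forms (isoenzymes) were compared with each other within each step.

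The libraries came from tumors grown in nude mice of the Balb/c strain from injected mouse embryonic fibroblasts. In KO cells the nuclear myosin NM1, a product of the Myo1c gene, was deleted by CRISPR/Cas9 in an immortalized fibroblast line. KO+NM1 cells are those same KO cells after a lentivirus returned the coding sequence of NM1 with HA and V5 tags, followed by selection of single clones with neomycin. Both groups therefore carry the deletion, the host mice were 16-week-old females in groups of 5, and tumors were taken after up to 30 days by the labels. There were 3 KO libraries and 4 KO+NM1 libraries. A tumor holds injected fibroblasts and host tissue, and the counts do not assign a read to either. The labels write of 1 tumor for each condition, cut into 4 pieces homogenized apart, so the libraries were taken as pieces of a tumor. The p-values here then measure the spread between pieces, and a difference between the genotypes cannot be told apart from a difference between 2 tumors or 2 mice. The labels place the injection in the right flank and the study's results text in the mammary pad.

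Glycolysis breaks glucose down to pyruvate, and lactate dehydrogenase turns pyruvate into lactate or lactate back into pyruvate. Many steps are served by several genes whose products catalyse the same reaction in different tissues: skeletal muscle has its own phosphofructokinase, phosphoglycerate mutase, enolase and glycogen phosphorylase, brain has its own aldolase and enolase, and fat and muscle share the insulin-responsive glucose carrier. Tumors often take up much glucose and release lactate, so the forms that a tumor expresses are of interest beside the total.

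Each library held 24088309 to 28326568 counts, and the 35 members took 0.457% to 1.08% of them. Myo1c itself was measured at 312, 289 and 306 CPM (counts scaled to library size by edgeR's TMM factors) in KO pieces 1, 2 and 3 and at 437, 407, 406 and 381 CPM in KO+NM1 pieces 1 to 4. The groups did not overlap (log2 fold change -0.43 ± 0.13 SE, KO minus KO+NM1, adjusted p = 0.031 by edgeR's quasi-likelihood test), but gene counts pool NM1 with the other Myo1c isoforms and with the lentiviral copy, so they check the labels only in part. The Myo1c call was lost in 7 of 18 other ways of processing, among them library size scaling, the replicate block and the removal of any KO piece (adjusted p = 0.0508 to 0.072) or of KO+NM1 piece 2 (adjusted p = 0.0619), by edgeR. Many cell type markers differed widely between the tumors. Skeletal muscle markers summed to 2514, 20774 and 16677 CPM in the KO pieces and to 10.4 to 27.1 CPM in the KO+NM1 pieces, with all 9 tested markers higher in KO. White adipocyte markers summed to 118 to 310 CPM in KO and to 4763 (piece 1) to 34944 CPM in KO+NM1, with 10 of 10 lower in KO. Macrophage markers summed to 1653 to 1873 CPM in KO and 362 to 502 CPM in KO+NM1 (5 of 6 higher in KO). Proliferation markers summed to 1472 to 2000.3 CPM in KO and 13.8 to 64.7 CPM in KO+NM1, with 6 of 6 higher in KO. Endothelial (5 of 5), erythroid (5 of 5), mammary epithelial (5 of 7) and brown adipocyte markers (4 of 6) were lower in KO. Fibroblast markers overlapped, at 5677 to 10143 CPM in KO and 2040 to 8784 CPM in KO+NM1 (0 of 6 higher and 2 lower). Keratinocyte markers summed to 25.7, 1207 and 3.86 CPM in the KO pieces and to 56.0 to 419 CPM in KO+NM1. KO+NM1 piece 1 stood apart with 4119 CPM of B cell markers, against 3.00 to 41.6 CPM in the other 6 libraries. In such bulk tissue, fewer cells of a type and less RNA per cell cannot be told apart, and the part of cell content in the results below was not tested.

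All 35 members passed the filter on low counts. In the KO tumor 9 members were higher, 7 were lower and 19 were not called (adjusted p under 0.05 by edgeR). Of all 16887 genes with a test, 25.7% were called higher and 24.5% lower, so the members' shares of 25.7% and 20.0% were close to the background. With a change of at least 2-fold also required, 7 members were higher and 7 were lower, 20.0% each, beside 17.1% and 20.3% of all genes. With upper-quartile scaling 7 were higher and 9 lower, beside 3753 and 4768 of 16887 genes, and without KO+NM1 piece 1 there were 9 higher and 14 lower, beside 5957 and 5980 of 16617 genes. The libraries of the 2 groups did not overlap for 16 members (45.7%), 8 in each direction, against 57% of all genes. The median log2 fold change of the members was -0.34, beside -0.0017 over all genes tested. Called members of opposite sign stood within a step at glycogen phosphorylase (Pygm and Pygl) and among the PFKFB enzymes, as the plot of fold changes shows.

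**Figure D1:**
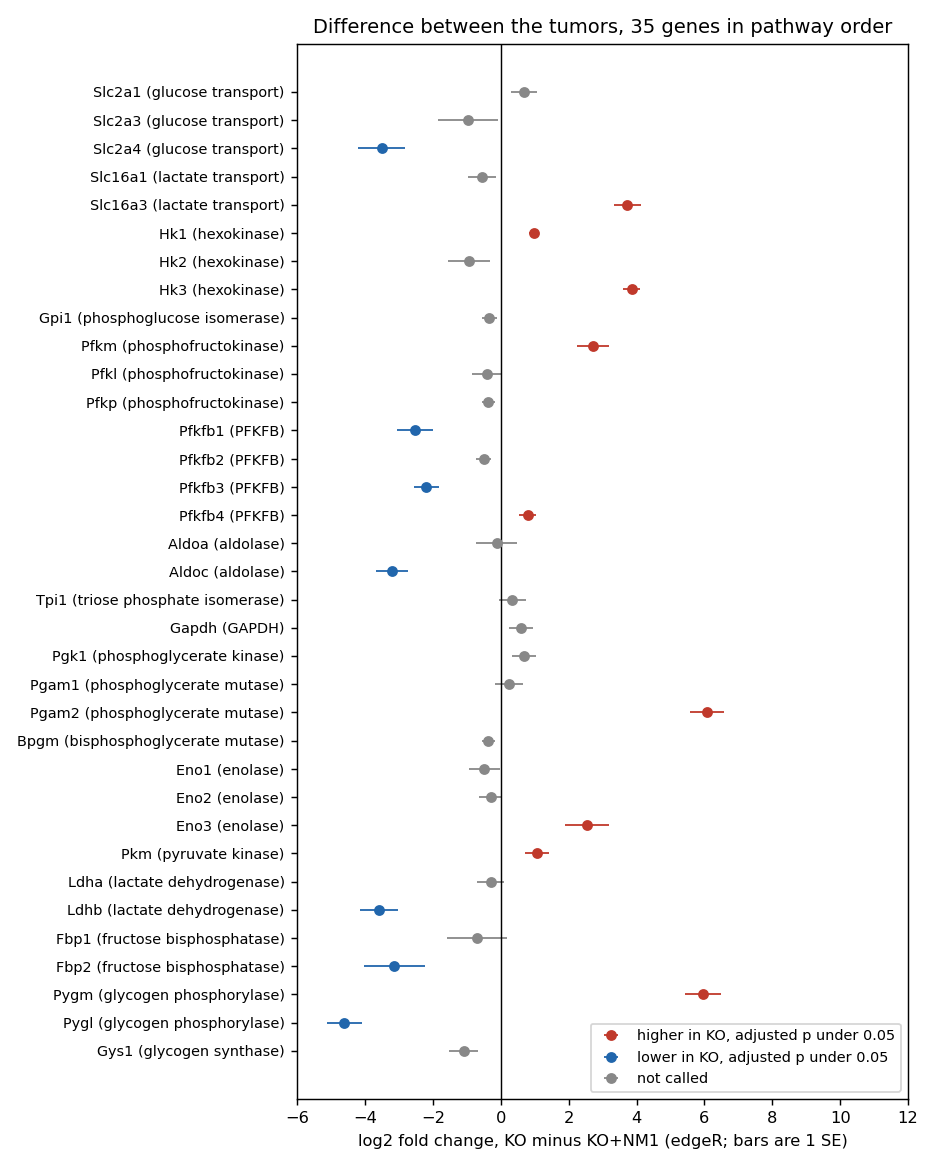
Log2 fold change (KO minus KO+NM1, edgeR) of each of the 35 genes on the horizontal axis, with bars of 1 SE from 3 KO and 4 KO+NM1 libraries, the genes ordered from uptake to glycogen. Red marks the 9 genes called higher in KO, blue the 7 called lower and grey the 19 not called, and Pgam2 (6.08) and Pygl (-4.62) are the extremes.

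Glucose enters cells through the GLUT carriers. Slc2a4, the insulin-responsive GLUT4 of fat and muscle, stood at 7.49, 29.2 and 27.7 CPM in KO pieces 1, 2 and 3 and at 59.1, 289.7, 419.7 and 215 CPM in KO+NM1 pieces 1 to 4. The groups did not overlap, and the lowest piece of each tumor was its piece 1. Slc2a4 was lower in KO (log2 fold change -3.52 ± 0.69 SE, adjusted p = 0.00931), 11.4-fold by the means. Slc2a1, the general carrier GLUT1, was at 109.6, 62.2 and 72.1 CPM in KO and 87.4, 40.3, 29.7 and 45.1 CPM in KO+NM1. KO+NM1 piece 1 reached into the KO range, and the difference was not called (log2 fold change 0.68 ± 0.39 SE, adjusted p = 0.182). Without that piece it was called, at 0.96 (adjusted p = 0.00898, edgeR). Slc2a3, the high-affinity GLUT3 of neurons and white blood cells, was at 6.99 to 11.0 CPM in KO and 5.13 to 6.42 CPM in KO+NM1 pieces 2 to 4, but at 50.4 CPM in KO+NM1 piece 1, the piece with the B cell markers. Its log2 fold change was -0.97 (adjusted p = 0.40) with this piece and 0.45 (adjusted p = 0.113) without it, so a single library set its sign.

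Lactate leaves or enters cells through monocarboxylate carriers. Slc16a3 (MCT4), which exports lactate from strongly glycolytic cells, was measured at 75.6, 34.9 and 46.4 CPM in KO and 6.45, 3.74, 2.22 and 3.33 CPM in KO+NM1. The KO pieces were all higher and piece 1 was the highest of them, the opposite order to the muscle markers. Its log2 fold change was 3.73 ± 0.41 SE, adjusted p = 0.0009, a 13.3-fold difference of the means, and it was called under every alternative tried. Slc16a1 (MCT1), the widespread carrier that works in both directions, was at 68.8, 65.5 and 63.5 CPM in KO and 49.7, 89.9, 177 and 68.4 CPM in KO+NM1. The KO values fell inside the KO+NM1 range, and the difference was not called (log2 fold change -0.55 ± 0.41 SE, adjusted p = 0.307). It was called lower in KO without KO+NM1 piece 1, at -0.90 (adjusted p = 0.0455, edgeR).

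Hexokinases phosphorylate glucose and trap it in the cell. Hk3, the form of myeloid cells, was at 76.8, 91.2 and 93.1 CPM in KO and 8.96, 5.24, 4.64 and 5.09 CPM in KO+NM1. The groups were far apart, with KO+NM1 piece 1 the highest of its tumor, and the log2 fold change was 3.86 ± 0.25 SE, adjusted p = 0.000235. The macrophage markers, which were also higher in KO, had a median log2 fold change of 1.37 over 6 genes. Neutrophil markers, of another myeloid cell, went the other way, at 0.998 to 4.93 CPM in KO and 3.08 to 42.3 CPM in KO+NM1. Of 4 tested, 0 were higher and 1 was lower in KO. Hk1, the general form, was at 235, 198 and 227 CPM in KO and 107, 120.4, 106 and 117 CPM in KO+NM1. The pieces of each tumor were close together, and Hk1 was higher in KO (log2 fold change 0.96 ± 0.13 SE, adjusted p = 0.0013). Hk2, the form of insulin-sensitive tissues that many tumors induce, was at 54.4, 81.2 and 75.7 CPM in KO and 38.0, 109.7, 298 and 94.8 CPM in KO+NM1. KO+NM1 piece 3, which had the most brown adipocyte markers (3627 CPM against 412 to 945 CPM in the other KO+NM1 pieces), was highest and piece 1 lowest, and Hk2 was not called (log2 fold change -0.94 ± 0.62 SE, adjusted p = 0.253). Without KO+NM1 piece 1 it was called lower in KO, at -1.38 (adjusted p = 0.0277, edgeR). Gpi1, which converts glucose phosphate to fructose phosphate and has no second form among the members, was at 301 to 341 CPM in KO and 322 to 579 CPM in KO+NM1 and was not called.

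Phosphofructokinase commits sugar to glycolysis. Pfkm, its muscle form, was at 163, 438 and 401 CPM in KO and 22.9, 57.3, 75.3 and 47.2 CPM in KO+NM1. All KO pieces were above all KO+NM1 pieces, and KO piece 1, which had the fewest muscle markers of the KO pieces, was the lowest KO piece. The log2 fold change was 2.72 ± 0.47 SE, adjusted p = 0.00355. With KO pieces 2 and 3 both left out it fell to 1.57 and was no longer called (adjusted p = 0.136, edgeR). Pfkl, the liver form, was at 244, 202 and 213 CPM in KO and 164, 263, 552 and 197 CPM in KO+NM1, with a log2 fold change of -0.42 ± 0.42 SE, adjusted p = 0.438. Pfkp, the platelet form, was at 85.2 to 95.1 CPM in KO and 86.4 to 147 CPM in KO+NM1. Neither was called, although Pfkp was called lower without KO+NM1 piece 1 (-0.62, adjusted p = 0.00357, edgeR), and the sign of Pfkl turned to 0.059 without KO+NM1 piece 3.

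The bifunctional enzymes of the PFKFB family make and break down the sugar phosphate that activates phosphofructokinase. Pfkfb3, the inducible form with strong kinase activity, was at 55.7, 106 and 111 CPM in KO and 226, 467, 577 and 401 CPM in KO+NM1. No KO piece reached the lowest KO+NM1 piece, and it was lower in KO (log2 fold change -2.20 ± 0.37 SE, adjusted p = 0.00385). Pfkfb1, the form of liver and muscle, was at 6.26, 5.10 and 5.70 CPM in KO and 8.45, 46.4, 43.2 and 33.5 CPM in KO+NM1. The groups did not overlap, although KO+NM1 piece 1 lay near the KO values, and the log2 fold change was -2.53 ± 0.52 SE, adjusted p = 0.00919. Pfkfb4, described in testis and in hypoxic tumors, went the other way at 21.8, 33.1 and 28.7 CPM in KO and 22.3, 14.9, 13.6 and 13.8 CPM in KO+NM1. Its groups overlapped because KO+NM1 piece 1 was above KO piece 1, and it was called (log2 fold change 0.79 ± 0.25 SE, adjusted p = 0.0326). Not counting alternatives chosen after seeing the data, the call was lost in 9 of 16 other ways of processing. These losses included the removal of any library but KO+NM1 piece 1 (0.53 to 0.83, adjusted p = 0.0519 to 0.186). Pfkfb2, the heart form, was at 7.16 to 7.53 CPM in KO and 8.53 to 13.0 CPM in KO+NM1 without overlap, but was not called (adjusted p = 0.10). It was called lower without KO+NM1 piece 1 (-0.70, adjusted p = 0.0161, edgeR) and, with every library kept, by upper-quartile scaling, DESeq2's Wald test and limma's voom.

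Aldolase splits fructose bisphosphate into a pair of triose phosphates. Aldoa, the muscle and general form and the most abundant member, was at 812, 2815 and 2386 CPM in KO and 896, 2404, 3801 and 1662 CPM in KO+NM1. Both groups spread widely, each with its piece 1 lowest, and the log2 fold change was -0.13 ± 0.59 SE, adjusted p = 0.873. Its sign turned to 0.13 without KO piece 1 and to 0.26 without KO+NM1 piece 3. Aldoc, the brain form, was at 5.67 to 6.92 CPM in KO and 18.6, 68.5, 52.7 and 89.6 CPM in KO+NM1, lower in KO without overlap (log2 fold change -3.21 ± 0.47 SE, adjusted p = 0.00271). Markers of neurons and Schwann cells summed to 65.1 to 73.5 CPM in KO and 110 to 221 CPM in KO+NM1, with 3 of 5 tested lower in KO and 1 higher.

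Between aldolase and phosphoglycerate mutase the members have 1 gene for each step. Tpi1, triose phosphate isomerase, was at 501, 510.2 and 504 CPM in KO and 161, 486, 592 and 358 CPM in KO+NM1. The KO pieces agreed within 2% while the KO+NM1 pieces spread from below to above them, and it was not called (log2 fold change 0.34 ± 0.40 SE, adjusted p = 0.511). Pgk1, phosphoglycerate kinase, was at 78.9, 74.1 and 76.0 CPM in KO and 31.6, 45.7, 81.7 and 30.9 CPM in KO+NM1. It showed the same pattern of close KO values with KO+NM1 piece 3 above them, and was not called (log2 fold change 0.69 ± 0.35 SE, adjusted p = 0.142). Gapdh was at 171, 233 and 212 CPM in KO and 108, 116, 237 and 87.7 CPM in KO+NM1 and was not called (log2 fold change 0.58 ± 0.35 SE, adjusted p = 0.205). Without KO+NM1 piece 3 both were called higher in KO, Gapdh at 0.97 (adjusted p = 0.00967) and Pgk1 at 1.06 (adjusted p = 0.00783) by edgeR. With every library kept, both were also called higher with library size scaling and by limma's voom. Gapdh is uncertain: genes that match its exons at 90% identity or more over at least 300 bases held 207% of the counts of Gapdh itself. With those copies added its log2 fold change was 0.82 (adjusted p = 0.105, edgeR). Bpgm, which makes the bisphosphoglycerate of red cells, was at 20.3 to 25.4 CPM in KO and 24.0 to 34.0 CPM in KO+NM1 and was not called. It was called lower without KO+NM1 piece 1 (-0.59, adjusted p = 0.00729, edgeR) and, with every library kept, by DESeq2's Wald test and by limma's voom. Erythroid markers summed to 19.5 to 30.0 CPM in KO and 218 to 829 CPM in KO+NM1.

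Phosphoglycerate mutase has a muscle and a general form. Pgam2, the muscle form, was at 29.9, 119 and 110.2 CPM in KO and 1.71, 1.50, 0.987 and 0.862 CPM in KO+NM1. Each KO piece was more than 10 times any KO+NM1 piece, and it had the largest rise among the members (log2 fold change 6.08 ± 0.50 SE, adjusted p = 0.000495). Pgam1, the general form, was at 457, 308 and 342 CPM in KO and 157, 322, 537 and 234 CPM in KO+NM1. These ranges overlapped, and it was not called (log2 fold change 0.24 ± 0.41 SE, adjusted p = 0.653). KO piece 1 was the highest KO piece for Pgam1 and the lowest for Pgam2.

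Enolase has a muscle form, Eno3, a general form, Eno1, and a neuronal form, Eno2. Eno3 was at 101, 215 and 212 CPM in KO and 72.9, 17.6, 15.4 and 15.5 CPM in KO+NM1. All KO pieces were higher, but KO+NM1 piece 1 was 4.51 times the mean of the other KO+NM1 pieces. The log2 fold change was 2.53 ± 0.64 SE, adjusted p = 0.0162. It missed the threshold with the replicate block, and without KO piece 2 (2.25, adjusted p = 0.0545) or KO piece 3 (2.27, adjusted p = 0.0574), by edgeR. With both of these pieces left out the log2 fold change was 1.64. Eno1 was at 303, 205 and 224 CPM in KO and 186, 297, 662 and 223 CPM in KO+NM1, with overlap and no call (log2 fold change -0.49 ± 0.45 SE, adjusted p = 0.406), and its sign turned to 0.031 without KO+NM1 piece 3. Near-identical copies of Eno1 held 74.0% of its own counts, and with them added the log2 fold change was -0.58 (adjusted p = 0.328, edgeR). Eno2 was at 11.9 to 15.9 CPM in KO and 9.67 to 26.3 CPM in KO+NM1 and was not called.

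Pkm, pyruvate kinase of muscle and proliferating cells, yields pyruvate and ATP. It was at 2033, 1950.3 and 1969 CPM in KO and 663, 828, 1639 and 664 CPM in KO+NM1. The KO pieces were nearly equal and above all KO+NM1 pieces, of which piece 3 came closest. It was called close to the threshold (log2 fold change 1.06 ± 0.37 SE, adjusted p = 0.0442). Not counting alternatives chosen after seeing the data, the call was lost in 11 of 16 other ways of processing. Among them was the removal of any library but KO+NM1 piece 3 (0.79 to 0.99, adjusted p = 0.0692 to 0.157). Gene counts pool the isoforms PKM1 and PKM2, so nothing can be said of their balance. The proliferation markers were also higher in every KO piece, and their part in the level of Pkm was not tested.

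Lactate dehydrogenase is a tetramer of A and B subunits, and the B subunit, abundant in heart and oxidative tissue, favours use of lactate. Ldhb was at 20.5, 20.4 and 18.3 CPM in KO and 65.7, 260.3, 450.5 and 181 CPM in KO+NM1. The KO pieces were nearly equal and at most 20.5 CPM, below the lowest KO+NM1 piece, and Ldhb was lower in KO (log2 fold change -3.60 ± 0.55 SE, adjusted p = 0.00364), 12.1-fold by the means. Ldha, the A subunit that favours lactate production and a classical hypoxia target, was at 745, 728 and 755 CPM in KO and 402, 1058, 1413 and 771 CPM in KO+NM1. The KO values again agreed closely and lay within the KO+NM1 range (log2 fold change -0.29 ± 0.40 SE, adjusted p = 0.569). Without KO+NM1 piece 1 Ldha was called lower in KO (-0.67, adjusted p = 0.0318, edgeR).

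Fructose bisphosphatase runs the phosphofructokinase step backwards. Fbp2, the muscle form, was low everywhere, at 0.266, 1.18 and 1.06 CPM in KO and 1.89, 5.20, 19.6 and 3.08 CPM in KO+NM1. It was lower in KO without overlap (log2 fold change -3.15 ± 0.90 SE, adjusted p = 0.0342), and the call was lost on leaving out any KO piece or KO+NM1 piece 2 or 3 (-2.04 to -3.61, adjusted p = 0.0525 to 0.096). Fbp1, the liver form, was at 0.632 to 4.86 CPM in KO and 0.874 to 5.18 CPM in KO+NM1 and was not called.

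Glycogen phosphorylase releases glucose phosphate from glycogen, and here the forms changed in opposite directions. Pygm, the muscle form, was at 137, 819.6 and 690.0 CPM in KO and 8.49, 9.91, 7.35 and 9.36 CPM in KO+NM1. The 4 KO+NM1 pieces were alike, the KO pieces were all above them, and piece 1 was the lowest KO piece by 5.04 to 5.99 times. Its log2 fold change was 5.97 ± 0.53 SE, adjusted p = 0.000648. Pygl, the liver form, was at 9.19, 11.0 and 12.7 CPM in KO and 86.6, 279, 501 and 214 CPM in KO+NM1. It was lower in every KO piece, with the largest fall among the members (log2 fold change -4.62 ± 0.52 SE, adjusted p = 0.00142), 24.6-fold by the means. Both calls held in each of 16 other ways of processing, not counting those chosen after seeing the data. With KO pieces 2 and 3 both left out, the log2 fold changes were 3.85 for Pygm and -5.00 for Pygl. Gys1, the glycogen synthase of muscle and most tissues, was at 50.1, 64.1 and 67.2 CPM in KO and 51.5, 152, 202 and 114 CPM in KO+NM1 and was not called (log2 fold change -1.10 ± 0.42 SE, adjusted p = 0.068). It was called lower without KO+NM1 piece 1 (-1.49, adjusted p = 0.000914, edgeR) and, with every library kept, by upper-quartile scaling, DESeq2's Wald test and limma's voom.

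**Figure D2:**
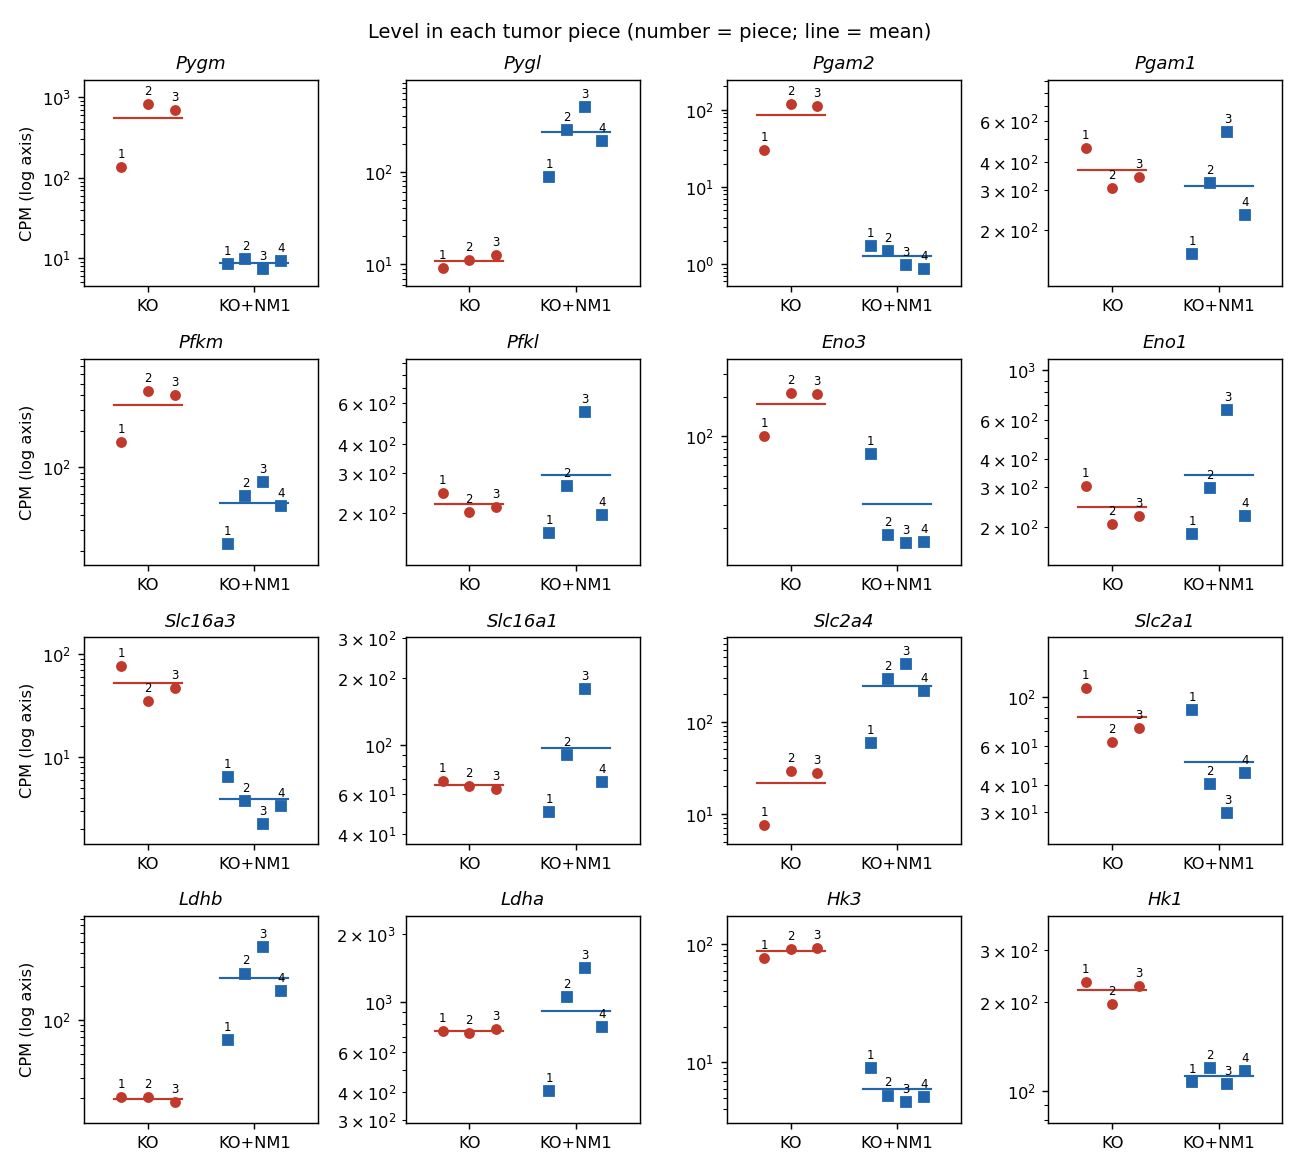
Level of 16 members in CPM (log axis, own range in each panel) in the KO pieces (red circles) and KO+NM1 pieces (blue squares), each point labelled with its piece number and the line at the group mean. Pygm and Pgam2 are higher in all KO pieces with piece 1 lowest, Pygl, Slc2a4 and Ldhb are lower in all KO pieces, and Pgam1, Pfkl, Eno1, Slc16a1 and Ldha overlap.

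The letters before the start sites of the members with the largest rises (Pgam2 and Pygm) and the largest falls (Pygl and Ldhb) are shown because these genes differed most between the tumors in each direction. They are the 150 bases upstream of the RefSeq start on the gene's own strand, from assembly GRCm38.p6. Capitals mark CAGCTG, an E-box of the kind that muscle regulatory factors bind, and ACGTG or its reverse CACGT, the core letters of hypoxia response elements. ACGTG and CACGT overlap each other in CACGTG, and neither overlaps CAGCTG.
Pgam2, chr11:5803797-5803946, minus strand: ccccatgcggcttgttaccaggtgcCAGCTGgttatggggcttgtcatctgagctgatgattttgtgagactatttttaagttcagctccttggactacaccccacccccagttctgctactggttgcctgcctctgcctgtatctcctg
Pygm, chr19:6384258-6384407, plus strand: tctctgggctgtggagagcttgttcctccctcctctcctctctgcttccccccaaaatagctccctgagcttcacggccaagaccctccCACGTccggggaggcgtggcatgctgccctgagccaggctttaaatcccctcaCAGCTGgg
Pygl, chr12:70227684-70227833, minus strand: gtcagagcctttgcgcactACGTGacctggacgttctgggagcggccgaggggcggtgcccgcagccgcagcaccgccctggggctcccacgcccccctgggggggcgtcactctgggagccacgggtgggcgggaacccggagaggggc
Ldhb, chr6:142507958-142508107, minus strand: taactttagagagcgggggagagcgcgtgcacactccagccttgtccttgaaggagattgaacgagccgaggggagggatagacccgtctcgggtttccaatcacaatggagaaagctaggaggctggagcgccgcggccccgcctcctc

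CAGCTG stands in the 150 bases before Pgam2 and before Pygm and in neither of the others, and the hypoxia core letters stand before Pygm and Pygl. In windows of 250 bases upstream, searched on both strands, 33 of the 35 members had an entry with 50 start sites between them, and Slc2a3 and Slc2a4 had none. CAGCTG was in at least one window of 3 of 9 members higher in KO (Pkm, Pgam2 and Pygm), 2 of 6 lower (Fbp2 and Pfkfb1) and 3 of 18 not called, and in 13.0% of all 32851 windows. ACGTG was in at least one window of 5 of 9 higher, 3 of 6 lower and 8 of 18 not called, and in 16.6% of all windows. Per window these letters stood in 8 (CAGCTG) and 20 (ACGTG) of the members' 50 windows. A match is a description of the sequence and does not show binding.

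Within a step, the share of each form was computed from RPKM (counts scaled to exon length and library size), to compare genes per length. The length was that of all exons of a gene merged (union exon length), and the shares depend on this choice. At 8 of 11 steps the share of the form fixed for testing did not overlap between the tumors, 5 higher and 3 lower in KO. The levels of 57% of all tested genes did not overlap either, and a background for shares was not computed. Pygm made up 97.0, 99.4 and 99.1% of phosphorylase RPKM in the KO pieces and 17.4, 7.07, 3.05 and 8.58% in the KO+NM1 pieces (mean 98.5% ± 1.33 against 9.01% ± 6.03, SD). Pfkm made up 53.2, 77.9 and 75.5% of phosphofructokinase in KO and 18.1, 26.1, 19.4 and 27.2% in KO+NM1, where Pfkl led with 56.7% to 71.2%. By union exon length the leading form thus changed between the tumors at both steps. In KO piece 1 the lead of Pfkm rested on that length. Its counts there were 4891, against 7333 for Pfkl. Union exons span 3340 bases for Pfkm and 6675 for Pfkl, against 2879 and 3730 in the longest transcripts.

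Pgam2 held 13.4, 47.7 and 43.2% of phosphoglycerate mutase RPKM in KO and 2.51, 1.09, 0.432 and 0.862% in KO+NM1, so the general form still led in every piece. Ldha held 94.5, 94.4 and 95.1% of lactate dehydrogenase in KO, with an SD of 0.391, and 74.4, 65.8, 59.8 and 66.9% in KO+NM1. Slc16a3 held 47.8, 30.7 and 37.8% of the lactate carriers in KO and 9.73, 3.35, 1.03 and 3.89% in KO+NM1. These 5 shares each had an exact two-sided permutation p of 0.0286, the smallest that 35 placements of 3 against 4 libraries allow, and 0.063 after Benjamini-Hochberg adjustment over the 11 steps, so none passed an adjusted 0.05.

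Slc2a4 held 6.26, 30.8 and 26.5% of glucose carrier RPKM in KO and 34.8, 87.1, 92.9 and 81.9% in KO+NM1, and Slc2a1 led in all KO pieces and in KO+NM1 piece 1. Hk2 held 15.9% to 22.1% of the hexokinases in KO and 29.8% to 78.5% in KO+NM1, while Hk3 held 36.3% to 40.2% in KO and 1.98% to 11.4% in KO+NM1. Aldoc stayed under 5% of aldolase in every piece, at 0.19% to 0.755% in KO and 1.22% to 4.59% in KO+NM1. These 3 steps did not overlap either (exact permutation p = 0.057 each, adjusted 0.079). Eno3 held 49.7, 75.0 and 73.0% of enolase in KO and 51.0, 14.7, 6.61 and 16.5% in KO+NM1, and KO+NM1 piece 1 was above KO piece 1 (exact permutation p = 0.086). Union exons of Eno1 span 5379 bases and its longest transcript 2027, against 1739 and 1564 for Eno3. By longest transcript the shares of Eno3 would be lower. With the copies of Eno1 counted as Eno1, the mean share of Eno3 was 54.9% in KO and 15.4% in KO+NM1. The shares of Pfkfb1 and Fbp2 overlapped (exact permutation p = 0.20 and 0.143).

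**Figure D3:**
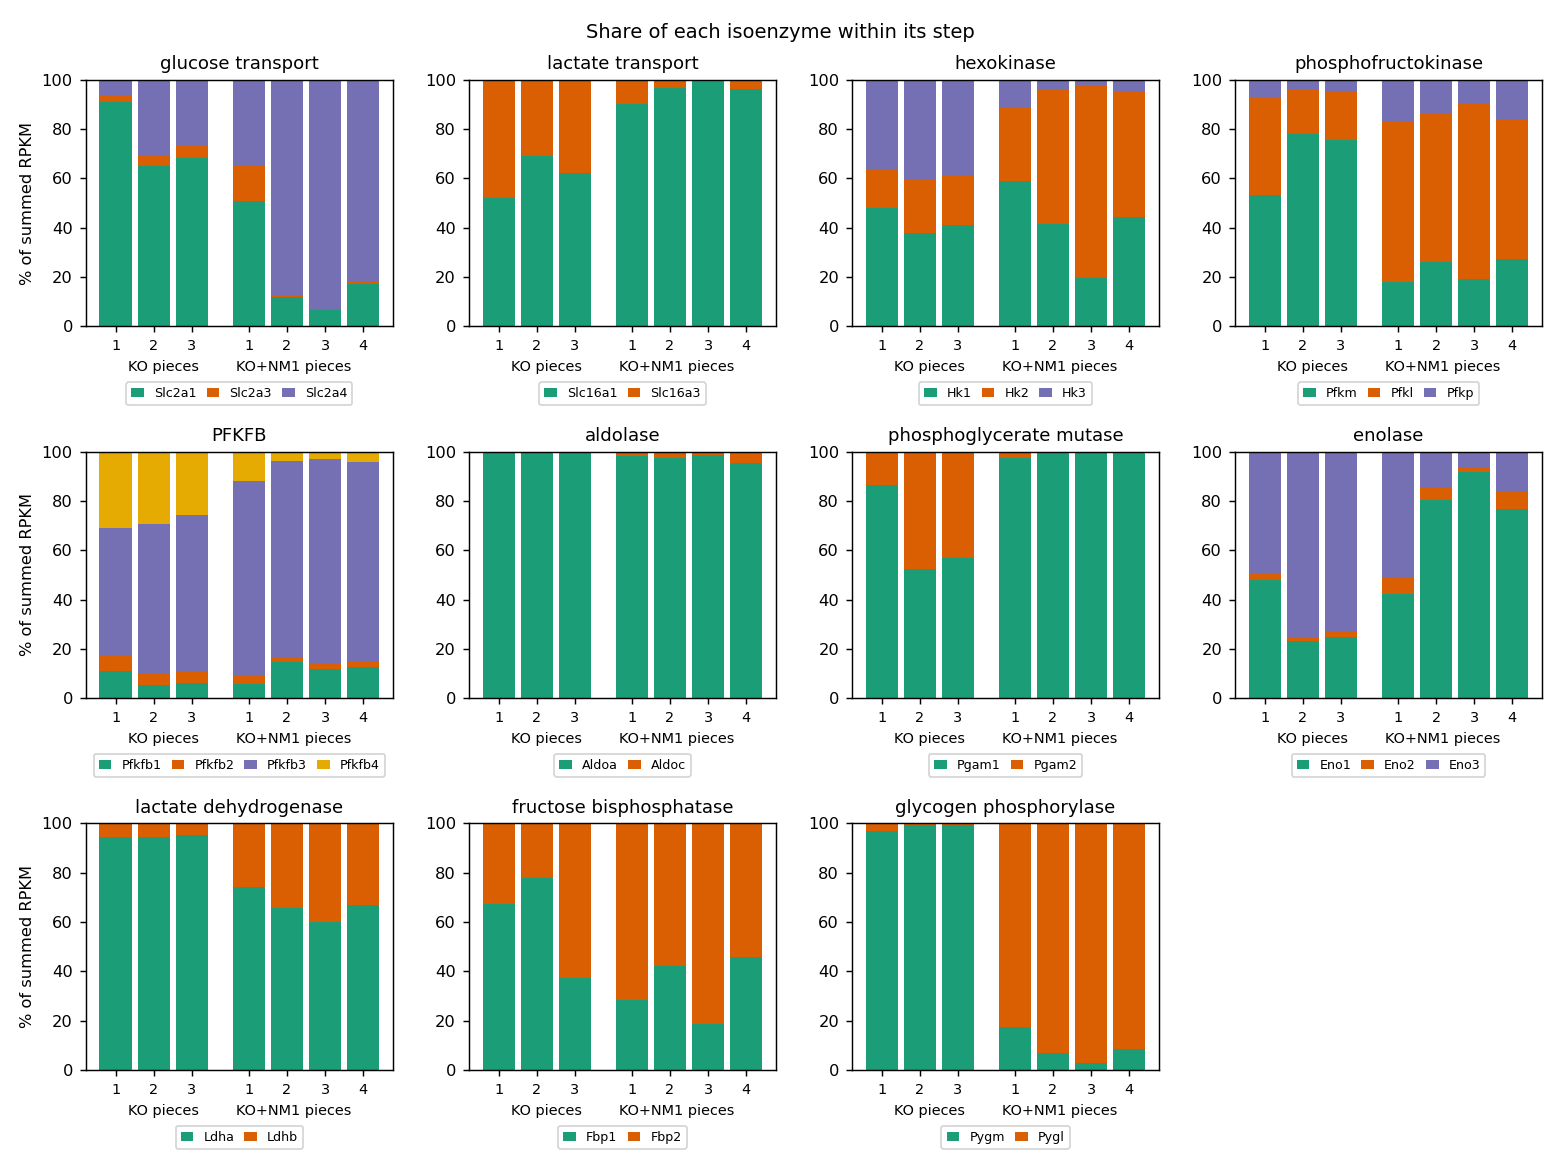
Percent of the summed RPKM of each step (vertical axis, 0 to 100) taken by each isoenzyme in every tumor piece, with KO pieces 1 to 3 on the left of each panel and KO+NM1 pieces 1 to 4 on the right. Pygm takes 97.0% to 99.4% of phosphorylase in the KO pieces and 3.05% to 17.4% in the KO+NM1 pieces, and Pfkm, Pgam2, Slc16a3 and Ldha also take larger shares in all KO pieces.

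Levels were also summed over the forms of each step. Summed over forms, glucose carriers were at 30.6 ± 3.59 RPKM (SD, n = 3) in KO and 87.4 ± 34.2 RPKM (n = 4) in KO+NM1, and the PFKFB enzymes at 20.1 ± 4.98 and 68.2 ± 22.9 RPKM, both without overlap. Pyruvate kinase, with Pkm alone, was at 397 ± 8.70 and 190 ± 93.3 RPKM, also without overlap. At the other 15 steps the totals overlapped. Phosphofructokinase summed to 91.7 to 168 RPKM in KO and 37.9 to 116 RPKM in KO+NM1, and phosphorylase to 43.9 to 256 RPKM and 15.2 to 74.9 RPKM. Aldolase was the most abundant step in both tumors by mean, at 690.4 ± 362 and 770.2 ± 428 RPKM.

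The pieces of a tumor were not alike. KO pieces 2 and 3 both exceeded KO piece 1 at least 2-fold for 7 members: Slc2a4, Pfkm, Aldoa, Pgam2, Eno3, Fbp2 and Pygm, by 2.09 to 5.99 times. The skeletal muscle markers rose 6.63 to 8.26 times between the same pieces. Of the others, 26 were within 2-fold and 1, Slc16a3, was at 0.462 and 0.613 times its level in piece 1, while Fbp1 was 7.68 times as high in KO piece 2 only. KO+NM1 piece 1 was at least 2-fold below the mean of the other KO+NM1 pieces for 18 members and at least 2-fold above it for 4, Slc2a1, Slc2a3, Slc16a3 and Eno3. Its white adipocyte marker sum was 6.63 times below that mean. Piece 3 held the highest KO+NM1 value of 22 members and piece 1 the lowest of 21. These piece counts were not computed over all genes, so they cannot be called particular to the members. Mitochondrial genes took 18.5% of the counts of KO+NM1 piece 3, against 5.11% to 10.5% in the other KO+NM1 pieces. Its TMM factor was 0.799, the lowest of all libraries, and the part of either in these counts was not tested.

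With KO pieces 2 and 3, the richest in muscle markers, both left out (an alternative chosen after seeing the data), 4 members were called higher in KO by edgeR and 0 lower (6 and 5 at an unadjusted p under 0.05), beside 1112 genes higher and 739 lower of 18695 tested. The 4 were Slc16a3 (4.16, adjusted p = 0.0273), Hk3 (3.58, adjusted p = 0.0257), Pgam2 (4.45, adjusted p = 0.0255) and Pygm (3.85, adjusted p = 0.0195) by edgeR, with the remaining KO piece assumed to vary like the KO+NM1 pieces. The 7 members called lower kept negative log2 fold changes of -2.51 to -5.15 without reaching the threshold. KO piece 1 still held 2514 CPM of muscle markers.

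**Figure D4:**
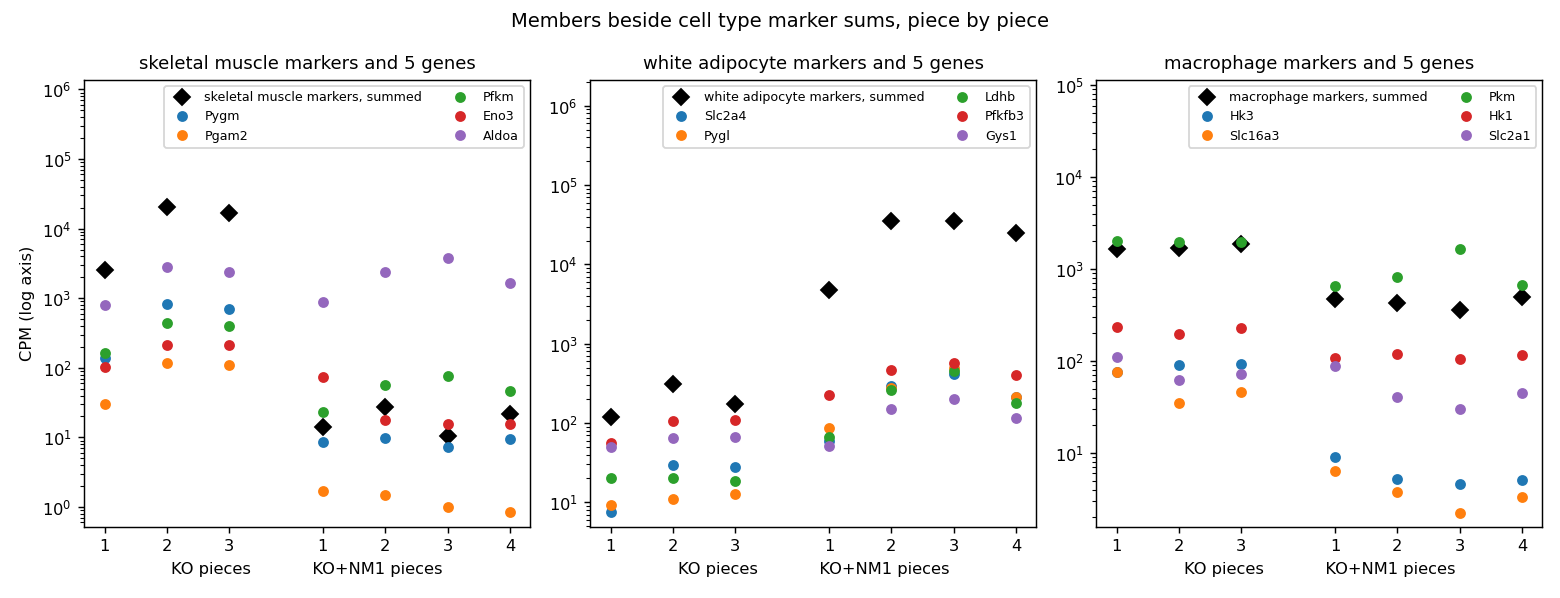
CPM (log axis) of 5 members and of the summed markers of a cell type (black diamonds) in each KO piece (left) and KO+NM1 piece (right) of 3 panels, for skeletal muscle, white adipocyte and macrophage markers. KO piece 1 is lowest for the muscle markers (2514 CPM) and for Pygm, Pgam2, Pfkm, Eno3 and Aldoa within the KO tumor, and KO+NM1 piece 1 is lowest for the adipocyte markers (4763 CPM) and for Slc2a4, Pygl, Ldhb, Pfkfb3 and Gys1 within the KO+NM1 tumor, as it is for 21 of the 35 members.

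Around the members, 75 other genes of glucose metabolism were listed, and 64 of them were tested. Of these, 10 (15.6%) were higher in KO and 27 (42.2%) lower, beside 25.7% and 24.5% of all genes, with a median log2 fold change of -0.57. By group, 4 of 5 tested genes of gluconeogenesis, 4 of 7 of the pentose phosphate pathway and 4 of 12 other carriers were lower in KO. Among other glycolytic isoenzymes 1 of 5 was higher and 2 were lower. Glycogen synthesis genes had 3 higher and 6 lower of 17, glycogen breakdown genes 3 higher and 2 lower of 9, and regulators of glucose use 3 higher and 5 lower of 9.

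Among those called at 2-fold or more that averaged 5 CPM or more, the largest falls were of Pck1, Gys2 and Slc2a5. Pck1, the cytosolic enzyme that makes phosphoenolpyruvate for new glucose or glycerol, was at 0.0333, 2.33 and 0.198 CPM in KO and 333, 2466, 2571 and 1609.7 CPM in KO+NM1 (log2 fold change -11.00 ± 1.15 SE, adjusted p = 0.00245). Gys2, the liver glycogen synthase, was at 0.0998, 0.451 and 0.0659 CPM in KO and 22.7, 137, 190.2 and 91.3 CPM in KO+NM1 (log2 fold change -9.05 ± 0.93 SE, adjusted p = 0.0011), and Slc2a5, the fructose carrier, at 0.0666, 0.382 and 0 and 8.34, 22.5, 70.6 and 13.1 CPM (log2 fold change -7.55 ± 1.18 SE, adjusted p = 0.00413). The groups were far apart for all 3.

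Among those that averaged 5 CPM or more, the largest rises were of Ppp1r3a, Phka1 and Stbd1. Ppp1r3a, the muscle subunit that brings a phosphatase to glycogen, was at 5.86, 37.2 and 34.2 CPM in KO and at 3 counts or fewer in every KO+NM1 piece, at least 205-fold higher in KO against a floor of 3 counts per library. Phka1, the muscle regulatory subunit of phosphorylase kinase, was at 35.9, 96.4 and 97.6 CPM in KO and 23.3, 15.2, 18.7 and 16.9 CPM in KO+NM1 (log2 fold change 2.05 ± 0.36 SE, adjusted p = 0.00345). Its call was lost with the replicate block and without both KO pieces 2 and 3 (0.85, adjusted p = 0.137, edgeR). Stbd1, which anchors glycogen to membranes, was at 5.82, 32.3 and 29.3 and 4.48, 6.70, 8.19 and 4.02 CPM (log2 fold change 1.94 ± 0.57 SE, adjusted p = 0.0268). In all 3 genes KO piece 1 was the lowest KO piece, and for Stbd1 it lay inside the KO+NM1 range. Stbd1 was lost without KO piece 2 (1.47, adjusted p = 0.115), KO piece 3 (1.59, adjusted p = 0.108), KO+NM1 piece 2 (2.00, adjusted p = 0.0604) or KO+NM1 piece 4 (1.78, adjusted p = 0.0719), and stood at -0.12 (adjusted p = 0.903) without both KO pieces 2 and 3, all by edgeR.

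Pygb, the brain form of glycogen phosphorylase, completes that step. It was at 129, 112 and 106 CPM in KO and 114, 302, 299 and 265 CPM in KO+NM1, where piece 1 fell within the KO range (log2 fold change -1.08 ± 0.33 SE, adjusted p = 0.0344). With Pygb counted, Pygm held 60.2% to 91.1% of phosphorylase RPKM in KO and 1.67% to 6.79% in KO+NM1. By union exon length, Pygb led in 3 of the 4 KO+NM1 pieces (59.1% to 61.9%) but not in piece 3 (45.3%). Union exons of Pygl span 6895 bases and its longest transcript 3150, and shares by longest transcript were not computed. In KO+NM1 piece 2 the counts were close, 7442 for Pygb and 6876 for Pygl. The call of Pygb was lost on leaving out any library but KO+NM1 piece 1 (-0.98 to -1.28, adjusted p = 0.0657 to 0.0876).

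Muscle-type creatine kinase, Ckm, and the adipocyte hormone gene Adipoq are markers of muscle and fat. Ckm was at 174, 1488 and 1077 CPM in KO and at 3 counts or fewer in every KO+NM1 piece, at least 7270.3-fold higher against the same floor. Adipoq was at 0.399, 9.16 and 2.67 CPM in KO and 234, 2069, 1754 and 1457 CPM in KO+NM1 (log2 fold change -8.40 ± 1.00 SE, adjusted p = 0.00329).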

How the data were processed

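Total RNA of 7 tumor pieces was sequenced from NEBNext Ultra II libraries on a NextSeq. Per the labels and the study's methods, the authors used Trimmomatic 0.36 for trimming, HISAT2 2.0.4 for alignment to GRCm38, SAMtools 0.1.19 for sorting and HTSeq for counting per gene. The annotation release and strand setting are not given in the sources used here, and counts of overlapping antisense genes and of near-identical copies may be shared. The deposited values are raw counts for 46603 genes, of which 46005 were given a symbol from GENCODE M21.

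In edgeR 4.0.16 (R 4.3.3), filterByExpr with a minimum count of 10 left 16887 genes, libraries were scaled with TMM factors, and KO was compared with KO+NM1 in the quasi-likelihood framework. P-values were adjusted after Benjamini and Hochberg across all of these genes. A call was made at an adjusted p under 0.05, and calls of 2-fold or more were counted too. The biological coefficient of variation was 46.7%. The standard error came from the fitted information and moderated dispersion. RPKM used union exon lengths. Isoenzyme shares were compared by an exact two-sided permutation test of the difference of means. A fold against a group at 3 counts or fewer per library was taken against that floor, and floors cover counting error only. The libraries differed from each other by more than sampling noise (chi-square per degree of freedom 35.2 to 1049.7), so none was a repeat. The gene test was tested on simulated data.

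The 35 members, the 75 other pathway genes and the 84 marker genes of 13 cell types were chosen with earlier results of these data known. Named genes were all members, Myo1c, Ckm and Adipoq, Pygb, and the 3 largest rises and 3 largest falls among the other pathway genes that passed the adjusted p and the 2-fold change and averaged 5 CPM or more. Alternatives were the size factors and Wald test of DESeq2 1.42.0, upper-quartile and library size scaling, mitochondrial genes left out, other count filters, voom with quality weights of limma 3.58.1, the replicate number as a block, each library left out and, chosen after seeing the data, near-identical copies (blastn 2.17.0) added and KO pieces 2 and 3 left out.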

Additional observations from a re-analysis of the deposited data

Results flagged for a closer look

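A pair of values of the KO+NM1 tumor stood far from the other pieces of that tumor by Dixon's ratio of the gap to the range, both in piece 1. The log2 CPM of Slc2a3 had a ratio of 0.903 and that of Eno3 a ratio of 0.914, both past the 95% critical value for 4 samples. In CPM, Slc2a3 was at 50.4 in piece 1 and 5.13 to 6.42 in pieces 2 to 4, and Eno3 was at 72.9 in piece 1 and 15.4 to 17.6 in pieces 2 to 4. The same piece held 4119 CPM of B cell markers, 14.1 CPM of skeletal muscle markers and 4763 CPM of white adipocyte markers, and their part in these values was not tested. Of 46 values examined in this way 2 passed, and chance alone gives about 1 in 20, or 2.3.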

How the results depend on the processing

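Of the 16 members called, 11 kept their call and direction in all alternatives that could be run other than the one without KO pieces 2 and 3, and 5 lost it in some: Pkm in 11, Pfkfb4 in 9, Fbp2 in 5, Eno3 in 3 and Pfkfb1 in 1. The cause was not tested. Of the 19 members not called, 10 were called in at least one. The number of members higher in KO was 6 to 10 and the number lower 6 to 14 when 1 library was left out. Over all genes, the same fits called 2910 to 5957 higher and 3226 to 5980 lower, of 16547 to 17411 tested. The numbers of other pathway genes were 7 to 12 and 19 to 35, and 8 to 10 steps had shares without overlap. Limma's voom with quality weights called 12 members higher and 13 lower, and 19 and 35 other pathway genes, beside 7038 and 5951 of 16887 genes. The members that voom added were Slc2a1, Gapdh and Pgk1, higher in KO, and Slc16a1, Pfkp, Pfkfb2, Bpgm, Ldha and Gys1, lower. With KO replicates 2 and 3 both left out, 4 members were higher and 0 lower (6 and 5 at an unadjusted p under 0.05), and 3 other pathway genes were higher and 3 lower, with fewer samples in the fit. Differences not called changed sign with 1 library left out for Slc2a3 (-1.29 to 0.45, 0.45 without KO+NM1 piece 1), Pfkl (-0.75 to 0.059, 0.059 without KO+NM1 piece 3), Aldoa (-0.58 to 0.26, 0.13 without KO piece 1 and 0.26 without KO+NM1 piece 3), Tpi1 (-0.051 to 0.57, -0.051 without KO+NM1 piece 1), Pgam1 (-0.11 to 0.62, -0.062 without KO piece 1 and -0.11 without KO+NM1 piece 1) and Eno1 (-0.83 to 0.031, 0.031 without KO+NM1 piece 3). Slc2a3 was at 0.59 and Eno2 at 0.0058 by voom, and Aldoa at 0.13 by library size. Stbd1, which was called, stood at -0.12 without KO pieces 2 and 3. Scaling moved the median log2 fold change of all genes to -0.10 with the size factors of DESeq2, -0.16 with the upper quartile and 0.17 with library size. Deviations of same-numbered pieces from their group means were little correlated (r = 0.080, 0.102 and -0.017 across genes). Whether same-numbered pieces were handled together was not tested. With the replicate block, 6 members were higher and 6 lower and 7 and 20 other pathway genes, beside 3019 and 2680 of 16887 genes, and 1 of 3 KO pieces correlated best with its own number. Fbp1, Fbp2 and Pfkfb2 were at 20 CPM or less in every library, and Fbp2 rested on 8 counts in KO piece 1.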
